A study of Mus musculus with 24 samples.

Results

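A set of 6 genes known from the basal layer of stratified epithelia and mammary myoepithelium was followed in mouse inguinal white adipose tissue. The set held the keratins Krt5, Krt14, Krt15 and Krt17, the transcription factor gene Trp63 and the 14-3-3 sigma gene Sfn. They were chosen by symbol, and all 6 were among the 16118 protein-coding genes of the deposited table. RNA from the subcutaneous inguinal fat pad of 24 mice was sequenced as polyA RNA, with 1 library per mouse and 4 mice in each of 6 groups. Males and females were taken at postnatal day 21 (p21), or at day 28 after standard weaning (SW) or delayed weaning (DW). SW pups were separated from the mother at day 21 and DW pups were kept with her. All samples were whole tissue without cell sorting as far as the labels say, and strain, genotype and diet are not given in the sources used here.

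The mammary gland is a tree of bilayered ducts that grows inside the fat pad. Luminal cells line the duct, and basal or myoepithelial cells surround them, rest on the basement membrane and contract to move milk. Krt5 and Krt14 pair into the intermediate filaments of basal cells. Krt15 and Krt17 are keratins of basal and appendage epithelium, the p63 protein made from Trp63 maintains basal cells and their adhesion genes, and Sfn is an epithelial cell cycle regulator that responds to p53. The inguinal pad of the mouse carries mammary gland, and skin with its hair follicles lies directly over it, so the same keratins can come from either. In bulk tissue, fewer cells of a type and less RNA per cell cannot be told apart.

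The bases just upstream of Krt5 and Sfn are shown because these were the most abundant keratin and the most abundant gene of the 6 per transcript length in SW females, and because p63 belongs to the p53 family whose motif was searched for. Both are RefSeq promoter windows of build GRCm38.p6, each 250 bases on the minus strand, written 5′ to 3′ up to the base before the transcript start. They lie at chr15:101712906-101713155 and chr4:133602169-133602418. Capitals mark the p53 family motif in Krt5 and the CCAAT box in Sfn. That motif is only the repeat unit of the p53 family element. The full element, a pair of such units, was not searched for.
Krt5: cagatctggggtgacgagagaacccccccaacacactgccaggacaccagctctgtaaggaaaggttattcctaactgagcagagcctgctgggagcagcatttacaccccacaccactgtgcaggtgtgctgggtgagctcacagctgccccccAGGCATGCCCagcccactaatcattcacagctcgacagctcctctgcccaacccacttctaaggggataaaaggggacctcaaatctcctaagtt
Sfn: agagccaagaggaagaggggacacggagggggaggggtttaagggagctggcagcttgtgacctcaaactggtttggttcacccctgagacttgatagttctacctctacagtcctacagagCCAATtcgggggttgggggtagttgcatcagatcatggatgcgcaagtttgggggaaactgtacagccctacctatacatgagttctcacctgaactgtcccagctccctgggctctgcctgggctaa
The motif of Krt5 lay at −95 to −86 from the start and reads as a match on both strands. The CCAAT box of Sfn (letters CCAAT) began at −128. Across 32851 mouse promoter windows of the same length, 7.13% held the p53 family repeat unit and 33.8% held CCAAT on either strand. These matches are therefore descriptions of the letters. The TATA box (letters TATAAA) was found in neither window, nor was the GC box (letters GGGCGG) on either strand, which 12.4% and 32.7% of all windows held. The RefSeq window of Krt14 starts from a shorter transcript inside the gene and is not shown, and Krt15, Krt17 and Trp63 had no entry.

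The values are reads per gene divided by 1 factor per library, termed normalised reads here, and are not scaled to gene length. Each library held 57600711 to 302145813 reads over these genes, and 3 reads corresponded to between 0.0107 and 0.0462 normalised reads. In the deposited annotation Krt5 lies on chromosome 15, Krt14, Krt15 and Krt17 on chromosome 11, Trp63 on chromosome 16 and Sfn on chromosome 4. Between 0 and 15.0% of the 50-base stretches of each gene's transcripts also occur in another gene, with the highest shares for Sfn (pseudogenes) and Krt14 (13.9%, Krt16 and Krt17), so part of these reads is uncertain in origin. Krt5 overlaps Gm44323 on the opposite strand, and Trp63 overlaps Gm24928 on the opposite strand and Gm27005 on its own strand. Reads of these genes could not be separated, and for Gm27005 library strand would not separate them either. Adipocyte genes checked against the tissue label summed to between 13900 and 23701 normalised reads over 8 genes in every library.

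The 4 keratins were at their highest in SW females, lower in DW and p21 females, and at or near 0 in most males. Trp63 and Sfn did not share that separation of the sexes.

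Krt5, the type II basal keratin, was at 6.60, 6.99, 7.65 and 12.1 normalised reads in the 4 SW females. It was at 4.51, 5.96, 2.44 and 2.97 in the 4 DW females and at 1.34, 4.43, 0.434 and 4.45 in the 4 p21 females. Every SW female stood above every DW and p21 female, while DW and p21 females overlapped. Of the 12 males, 8 had fewer than 3 Krt5 reads, and the highest were DW male 87 at 2.52, p21 male 54 at 1.29 and SW male 78 at 0.631.

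Krt14, the type I partner of Krt5, was at 2.09, 2.68, 2.97 and 4.63 normalised reads in SW females. DW females had 2.10, 3.36, 1.48 and 1.00, and p21 females had 1.33, 2.51, 0.0578 and 1.97. The 3 female groups overlapped. The highest male value was 0.515, in p21 male 54, and 7 of 12 males had fewer than 3 reads.

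Krt15, a keratin of basal and follicle stem cells, was at 1.34, 1.38, 1.97 and 2.56 normalised reads in SW females. DW females had 0.448, 0.764, 0.640 and 0.595, close to the p21 females at 0.528, 0.837, 0.106 and 0.532. SW females therefore stood apart from both other female groups. Males reached 0.539 in DW male 87, and 7 of 12 males were listed at 0.

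Krt17, a keratin of epithelial appendages, was at 1.45, 1.43, 2.50 and 2.36 normalised reads in SW females. DW females had 0.868, 1.17, 0.514 and 0.227, and p21 females had 0.208, 1.13, 0.0289 and 0.862. Again the SW females lay above both. DW male 87 reached 1.56, within the SW female range, and p21 males 53 and 54 reached 0.585 and 0.531.

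Trp63 was at 7.05 to 8.72 normalised reads in SW females, 5.80 to 12.9 in DW females and 6.22 to 13.3 in p21 females. Males ranged from 2.54 to 18.2, with group means of 10.3 ± 4.79 at p21, 10.6 ± 6.68 in SW and 7.28 ± 1.97 in DW (SD, n = 4 each). The sexes overlapped at each age and weaning state, so Trp63 was present in the 8 males that had fewer than 3 Krt5 reads.

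Sfn was at 6.73, 9.42, 12.3 and 10.1 normalised reads in SW females, a mean of 9.63 ± 2.28 (SD, n = 4). The other 5 groups had means of 4.92 to 5.69. DW females were split, with 8.90 and 7.48 in animals 76 and 77 and 3.87 and 2.50 in animals 82 and 83.

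**Figure D1:**
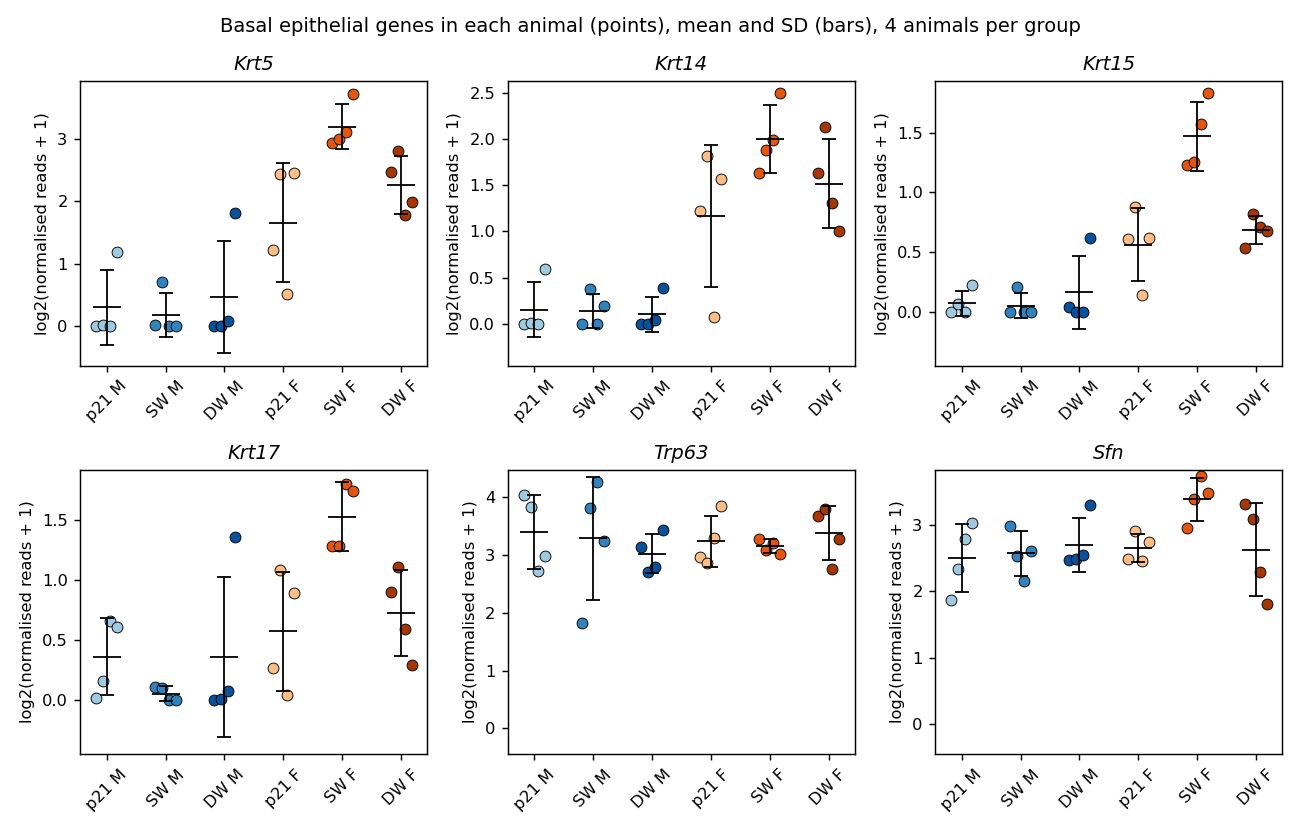
Values of the 6 genes as log2(normalised reads + 1) on the vertical axis, with 1 point per animal and the mean and SD of 4 animals as bars, for males (M) and females (F) at p21 and at day 28 after standard (SW) or delayed (DW) weaning. The 4 keratins are highest in SW females and near 0 in most males, whereas Trp63 overlaps across all 6 groups.

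Per kilobase of exonic sequence, the order in SW females was Sfn at 5.97 ± 1.41, Krt5 at 3.80 ± 1.16, Krt14 at 1.76 ± 0.620, Krt17 at 1.25 ± 0.370, Krt15 at 1.03 ± 0.326 and Trp63 at 0.941 ± 0.0885 normalised reads per kilobase (SD, n = 4). The last 3 neighbours in this order differed by less than their SDs. In SW males Sfn was at 3.13 ± 0.890 and Trp63 at 1.26 ± 0.796, while the keratins were at 0.0216 to 0.0736 normalised reads per kilobase. Per length, Krt5 exceeded Krt14 in all SW females, by 2.06 to 2.53 times. This ratio was 1.32 to 2.38 in DW females and 0.805 to 6.00 in p21 females, where the highest came from animal 55, which had 6 Krt14 reads.

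Differences between groups were tested with limma on log2(normalised reads + 1), with p-values adjusted by Benjamini-Hochberg over 16005 genes. A log2 difference on this scale understates the change of genes near 1 normalised read.

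Between p21 and day 28 with standard weaning, 3 of the 6 genes rose in females, where 7.39% of all genes rose. Krt5 rose by 1.53 (SE 0.419, adjusted p = 0.0180 by limma), a ratio of group means of 3.13. Krt15 rose by 0.91 (SE 0.149, limma adjusted p = 0.000259) and Krt17 by 0.96 (SE 0.266, limma adjusted p = 0.0196). Krt14 differed by 0.83 (adjusted p = 0.0576), Sfn by 0.74 (adjusted p = 0.114) and Trp63 by −0.09 (adjusted p = 0.922), which did not pass. The groups did not overlap for Krt5, Krt15, Krt17 and Sfn, with SW females higher, as for 11.4% of all genes. These calls depended on the test: edgeR on the recovered reads, which passed 9.2% of all genes, passed none of the 6, with log2 differences of 1.62 for Krt5 and 1.83 for Krt15 (adjusted p = 0.536 and 0.347). Without p21 female 55, whose keratins were the lowest of the females, Krt15 alone passed in limma, and the Krt5 difference was 1.15. The same count of 1 gene was found without p21 female 30 and without SW female 81. In both sexes p21 animals were numbered between 30 and 56 and day 28 animals between 73 and 124. Age therefore cannot be told apart from the run of animal numbers.

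In males the same interval passed the test for none of the 6 genes in limma (background 11.9%), with 0 at an unadjusted p under 0.05 and 0 in edgeR and DESeq2. The test of whether the age difference itself differed between the sexes passed for Krt15, by 0.93 (SE 0.211, limma adjusted p = 0.0278), where 0.962% of all genes passed in that direction. It did not pass in edgeR (adjusted p = 0.893), and its adjusted p in limma ranged from 0.0135 to 0.0709 when 1 animal was left out. In 8 of those 16 fits it missed the threshold: those without p21 males 38 or 54, SW males 84, 85 or 124, p21 female 55 or SW females 75 or 81.

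Each of the 4 keratins had a lower mean in DW females than in their SW counterparts, and 1 of the 6 genes fell past the test, as did 0.812% of all genes. Krt15 fell by 0.79 (SE 0.149, limma adjusted p = 0.00936), to a mean of 0.612 ± 0.131 from 1.82 ± 0.576 normalised reads (SD, n = 4 each). Krt5 differed by −0.93 (95% interval −1.80 to −0.06, adjusted p = 0.244), Krt17 by −0.81 (adjusted p = 0.143), Sfn by −0.76 (adjusted p = 0.202), Krt14 by −0.48 (adjusted p = 0.335) and Trp63 by 0.23 (adjusted p = 0.767), and none of these passed. The intervals are not adjusted for the number of genes. Krt5, Krt15 and Krt17 did not overlap between the groups, with DW lower, as for 3.52% of all genes. The median of the 6 differences was −0.77 against −0.02 over all genes.

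The Krt15 call held when any 1 animal was left out (adjusted p = 0.0114 to 0.0451) but was lost in other settings. edgeR gave −1.52 (adjusted p = 0.483), and 0 of 6 genes passed there against 0.444% of all genes. Without DW females 82 and 83 together, which had the lowest Krt5 and luminal keratin values of their group, Krt15 differed by −0.79 (limma adjusted p = 0.213). Animal numbers fall into runs, and within numbers 73 to 80 (2 DW against 3 SW females) the DW minus SW difference was −0.38 for Krt5 and −0.67 for Krt15, while within 81 to 87 (2 DW against 1 SW female) it was −1.83 and −1.14. With the run as a covariate Krt15 passed (−0.83, limma adjusted p = 0.0287).

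In males, delayed against standard weaning passed the test for 0 of 6 genes in limma (background 0.256%), with 0 at an unadjusted p under 0.05 and 0 in edgeR and DESeq2. A test of whether the weaning difference itself differed between the sexes passed for 0 of 6 in limma (background 0.0187%), with 3 at an unadjusted p under 0.05 and 0 in the other tools. Krt15 gave −0.90 there (limma adjusted p = 0.301). DW females against p21 females passed for 0 of 6 genes in limma (background 12.1%), with 0 at an unadjusted p under 0.05 and 0 in edgeR and DESeq2, and Krt5 differed by 0.60 (95% interval −0.27 to 1.47, adjusted p = 0.373). In males that comparison also gave 0 of 6 (15% of all genes passed), 0 at an unadjusted p under 0.05 and 0 in the other tools.

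**Figure D2:**
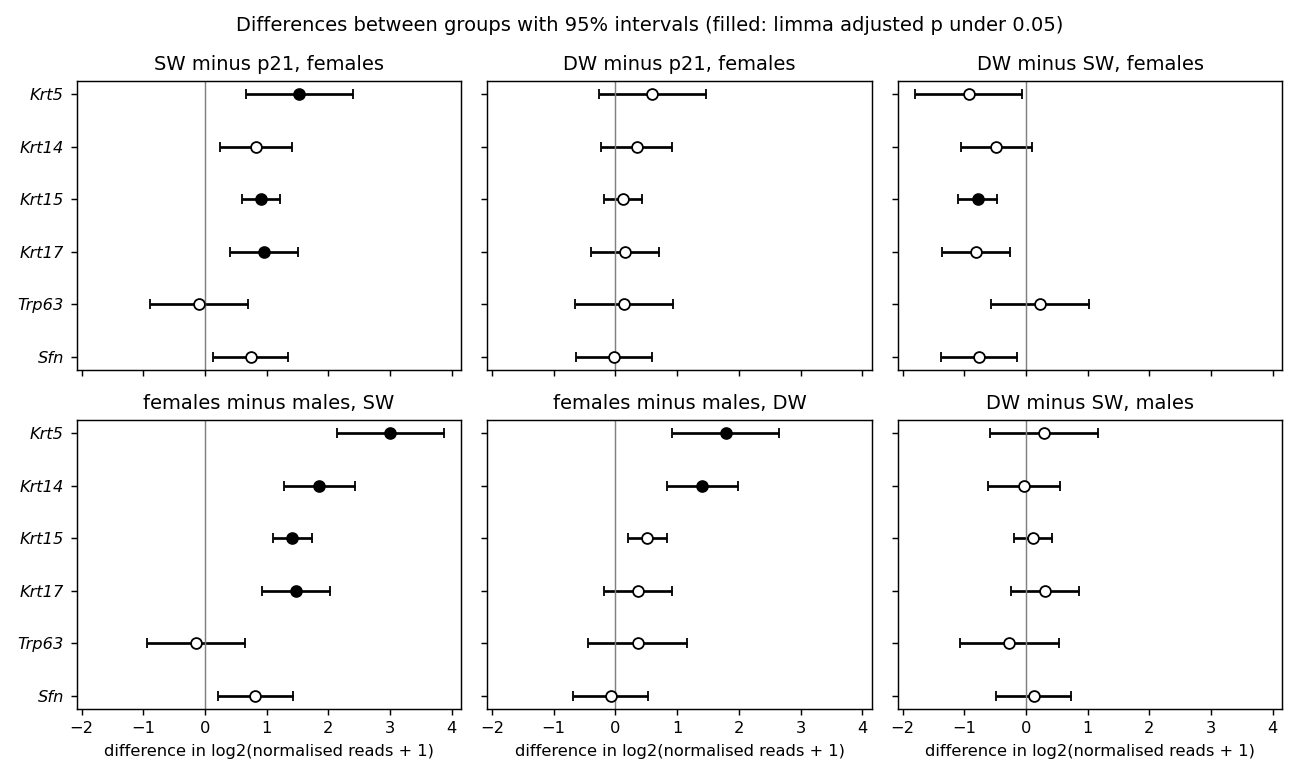
Difference in log2(normalised reads + 1) on the horizontal axis for each gene in 6 comparisons, with 95% intervals not adjusted for the number of genes; filled points passed limma at an adjusted p under 0.05. Krt5, Krt15 and Krt17 are filled for SW minus p21 in females, Krt15 for DW minus SW in females, the 4 keratins for SW females minus males, and Krt5 and Krt14 for DW females minus males.

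Females exceeded males in all 4 keratins after standard weaning, where 3.36% of all genes were higher in females, and no animal overlapped, as for 6.27% of all genes. Krt5 was higher by 3.01 (limma adjusted p = 2.43e-05), with a mean of 8.34 ± 2.55 normalised reads in SW females (SD, n = 4) against 0, 0, 0.0159 and 0.631 in the 4 SW males. Krt14 was higher by 1.86 (limma adjusted p = 6.54e-05), Krt15 by 1.42 (limma adjusted p = 5.19e-07) and Krt17 by 1.48 (limma adjusted p = 0.000673). Sfn differed by 0.82 (adjusted p = 0.199) and did not pass. The limma count stayed at 4 when any 1 animal was left out. edgeR passed Krt15 and Krt17 (adjusted p = 0.0265 and 0.0475, background 2.64%) and gave 0.0956 for Krt5 and 0.0705 for Krt14.

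After delayed weaning the sexes differed in Krt5 by 1.78 (limma adjusted p = 0.0201) and in Krt14 by 1.41 (limma adjusted p = 0.00411), where 1.89% of all genes were higher in females. Krt14 alone did not overlap, as for 5.6% of all genes. Krt15 differed by 0.52 (adjusted p = 0.0680) and Krt17 by 0.37 (adjusted p = 0.455), and DW male 87 exceeded 1 of 4 DW females in Krt15 and all 4 in Krt17. Without DW male 87 and SW female 75, Krt15 differed by 0.67 and passed. Krt5 no longer passed without DW male 79, 80 or 86, and edgeR passed 0 of 6 (background 2.39%).

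At p21 the test between the sexes passed for 0 of 6 genes in limma (background 0.356%), with 3 at an unadjusted p under 0.05 and 0 in edgeR and DESeq2. Krt5 differed by 1.36 (adjusted p = 0.311), Krt14 by 1.02 (adjusted p = 0.190) and Krt15 by 0.49 (adjusted p = 0.293). Without p21 female 55, Krt14 (1.38) and Krt15 (0.63) passed.

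Genes for basal cell adhesion and p63-linked regulation were followed as a list of 20. In females 10 of 20 rose from p21 to SW, as did 7.39% of all genes, and none fell, with a median log2 difference of 0.49 against 0.01 over all genes. Tfap2a, an AP-2 transcription factor gene of ectodermal epithelium, rose from 1.23 ± 0.62 to 5.80 ± 0.77 normalised reads (SD, n = 4), and Fermt1, an integrin activator gene of epithelium, from 0.27 ± 0.24 to 1.95 ± 0.28. Col17a1, the hemidesmosome collagen gene, rose from 2.17 ± 1.23 to 4.62 ± 1.08. Others that rose included Tfap2c, Dst, Cdh3, Pkp1, Perp and Krt6a. Itga6 and Egfr, among the most abundant of the list, differed by 0.14 and 0.15 and did not pass, nor did Dsc3 (−0.11).

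Between SW and DW females, 2 of these 20 fell, as did 0.812% of all genes, and none rose: Tfap2a by 1.07 (limma adjusted p = 0.0411) to 2.39 ± 1.25, and Fermt1 by 0.46 (limma adjusted p = 0.0347) to 1.13 ± 0.11 normalised reads. DW females were split in Tfap2a, with 3.55 and 3.39 in animals 76 and 77 and 1.36 and 1.27 in animals 82 and 83, whereas Fermt1 was at 1.04 to 1.29 in all 4. Over all genes, the chi-square per degree of freedom between these 2 pairs of libraries was 594 to 790, against 126 within the first pair and 123 within the second. Females exceeded males for 1 of 20 at p21, 10 in SW and 6 in DW animals, where 0.331%, 3.36% and 1.89% of all genes were higher in females, and no gene of the list was lower. In SW animals Tfap2a differed between the sexes by 2.33, Fermt1 by 1.48 and Col17a1 by 1.40, all past the test.

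Contractile genes that myoepithelium shares with vessel smooth muscle were followed as a list of 9. Oxtr, the oxytocin receptor gene, alone rose in females from p21 to SW, from 10.0 ± 5.42 to 73.4 ± 14.2 normalised reads. It was at 29.4 ± 4.56 in DW females, a difference of −1.28 from SW (adjusted p = 0.0879) that did not pass. Oxtr also rose in males from p21 to SW, by 2.21 (limma adjusted p = 0.000550), with means of 8.26, 36.2 and 17.0 in p21, SW and DW males. Acta2, the smooth muscle actin gene, was at 122 ± 27.2, 118 ± 11.6 and 102 ± 25.7 normalised reads in p21, SW and DW females and at means of 85.7 to 102 in males, and neither Acta2 nor Myh11, Mylk or Myl9 passed in females. The 7 vessel smooth muscle and pericyte genes summed to 649 to 1190 normalised reads per animal over all groups, and none passed for either female comparison.

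Luminal genes of the mammary duct were followed as a list of 16. In females 15 of 16 rose from p21 to SW (7.39% of all genes rose) and 4 fell from SW to DW (0.812% of all genes fell), namely Krt7, Cldn3, Cldn4 and Cldn7. From p21 to DW, 8 of 16 rose in females (5.95% of all genes rose), where 0 of the 6 basal genes passed. Females exceeded males for 10 of 16 at p21, 16 in SW and 15 in DW animals, against 0, 4 and 2 of the 6 basal genes. Over all genes, 0.331%, 3.36% and 1.89% were higher in females in these comparisons. At p21 the ratio of female to male means was 8.20 for Krt5, 11.2 for Krt14 and 9.32 for Krt15. It was 1.78 for Krt17, 1.08 for Sfn and 0.855 for Trp63. The keratin ratios rest on few male reads, and the tested scale understates changes near 1 normalised read. Whether the luminal and basal lists differed was not tested. The 16 luminal genes summed to 52.1 to 191 normalised reads in p21, 339 to 455 in SW and 136 to 276 in DW females. In males their sum ran from 2.63 to 25.6 at p21, 2.95 to 57.0 in SW and 5.07 to 18.6 in DW.

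The 4 basal keratins summed to a median of 5.61 normalised reads in p21, 13.8 in SW and 6.50 in DW females. The luminal keratins Krt7, Krt8, Krt18 and Krt19 summed to medians of 33.6, 222 and 88.3 in the same groups. For every 100 luminal keratin reads there were 4.69 to 21.0 basal keratin reads in p21 females, 5.26 to 8.39 in SW females and 5.34 to 10.1 in DW females, with medians of 14.6, 6.63 and 9.07. The p21 females other than animal 55 lay above every SW and DW female. The smallest basal and luminal sums among females both belonged to p21 female 55.

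**Figure D3:**
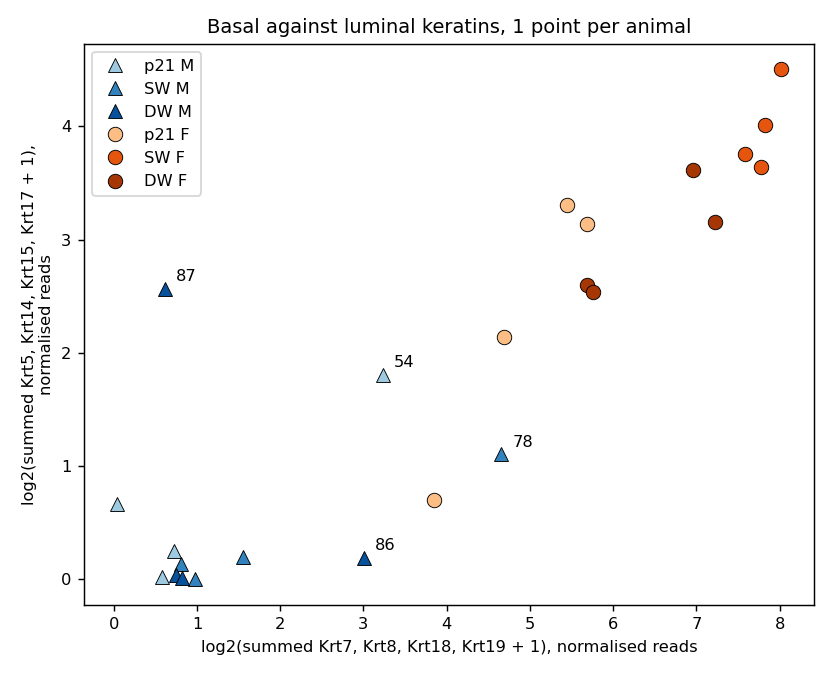
Summed basal keratins (vertical axis) against summed luminal keratins (horizontal axis), both as log2(sum of normalised reads + 1), with 1 point per animal, circles for females and triangles for males. SW females lie at the upper right, most males near the origin, and DW male 87 has basal keratins with luminal keratins near those of the other males.

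The 3 males with the highest Krt5 carried most of the male keratin reads, and they did so together with different genes. SW male 78 and p21 male 54 had Krt18 at 6.87 and 2.83 normalised reads and the milk protein gene Csn3 at 11.3 and 6.65, with the hair follicle keratins Krt28 at 0 in both and Krt75 at 0.0765 and 0. DW male 86 had Krt18 at 1.59 and Csn3 at 2.94, with Krt5 at 0.0566. DW male 87 had Krt28 at 4.67 and Krt75 at 2.92. Its luminal genes Krt8 and Csn3 were listed at 0, with Krt18 at 0.194, Krt19 at 0.159 and Elf5 at 0.239, the last below males 54 and 78 alone. It also had the desmosome genes Dsg3 at 1.05 and Perp at 6.74. In the other 11 males Krt28 did not exceed 0.147 and Krt75 did not exceed 0.152. Of the 13 hair follicle and sebaceous genes sought, 3 were listed and the other 10 were not analysed here.

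**Figure D4:**
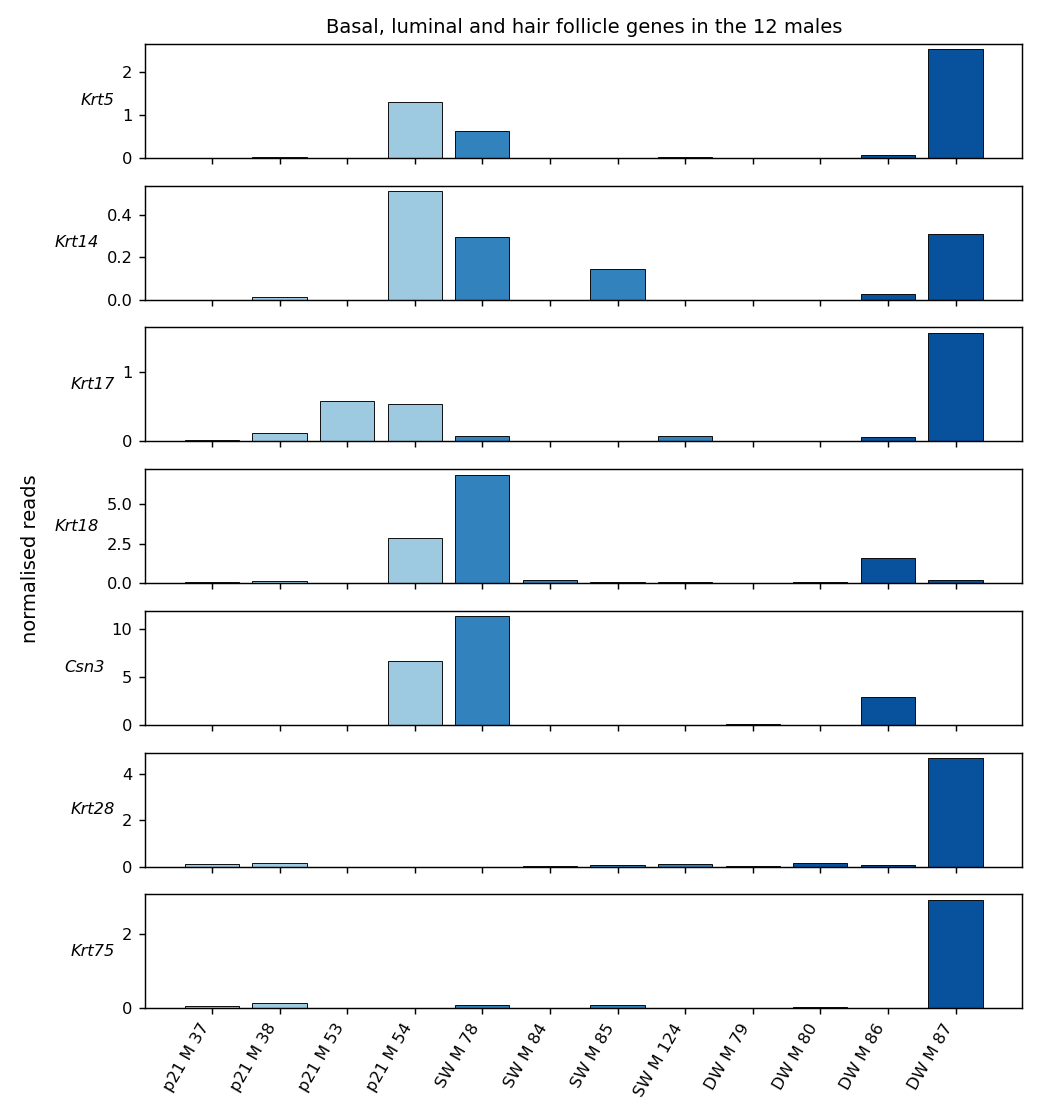
Normalised reads of 3 basal keratin genes, the luminal genes Krt18 and Csn3 and the hair follicle keratin genes Krt28 and Krt75 in the 12 males, each bar being 1 animal and each panel having its own axis from 0. Bars for Krt28 and Krt75 stand out in DW male 87, and those for Krt18 and Csn3 in SW male 78 and p21 male 54.

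Among females, Krt28 and Krt75 were at 1.36 and 1.10 normalised reads in SW female 75 and at or below 0.161 and 0.273 in the other 11. Leaving out SW female 75 and DW male 87 kept the number of genes that passed at 3 for SW against p21 females, 1 for DW against SW females and 4 for SW females against males. Of 14 suprabasal epidermis genes sought, 8 were listed. Their sums ran from 21.7 to 25.8 normalised reads in p21 females, 29.1 to 45.3 in SW females and 16.0 to 34.7 in DW females. In males they ran from 11.1 to 32.5 at p21, 29.2 to 40.4 in SW and 29.6 to 39.2 in DW. Sbsn was the most abundant gene of that list, with a mean of 22.3 over all 24 libraries. It was at 27.2 in SW male 84, which had 0 Krt5 reads, so these sums do not measure skin alone. DW male 87 had the highest male values of Dsg1a (2.88), Calml3 (1.30) and Lgals7 (1.14), but not of Krt79 or Sbsn. SW female 75 had the highest female values of Dsg1a (1.19) and Calml3 (0.637), but not of Lgals7, Krt79 or Sbsn. Krt10, Krtdap and Dmkn were not compared by animal. Lgals7 and Dmkn of that list rose from p21 to SW in females, and none passed between SW and DW. Mc5r, a receptor gene of the hair follicle and sebaceous list, fell from p21 to SW in females, by 1.39 (limma adjusted p = 0.00805). Its mean over all 24 libraries was 11.2 normalised reads, against 0.320 for Krt28. In p21 males Krt28 and Krt75 did not exceed 0.147 and 0.152, yet the 3 listed genes summed to at least 9.15. Whether the fall of Mc5r came from skin glands was not tested.

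Skeletal muscle genes varied widely between pads. Their sum over 8 genes ran from 6.27 to 1322 normalised reads in p21 females, from 342 to 2992 in SW females and from 4.47 to 2041 in DW females, and 0 of 8 passed in either female comparison. Their median log2 difference was 3.26 for SW minus p21 and −3.09 for DW minus SW in females, the same directions as the keratins. In males 8 of 8 rose from p21 to SW (median 5.46) and from p21 to DW (median 5.14). Of all genes, 6.9% and 8.86% rose in these male comparisons. The medians of the 6 basal genes were −0.06 and 0.04 there, and 0 of 6 passed. The 8 lymph node genes summed to between 288 and 501 over the female libraries. With both lists as covariates, Krt15 differed by −0.67 between DW and SW females (limma adjusted p = 0.0715) and Krt5 by 1.38 between SW and p21 females (limma adjusted p = 0.0648), neither of which passed, while Krt15 still rose from p21 to SW by 0.81 (limma adjusted p = 0.00234). The part of muscle in the keratin differences was not tested beyond this.

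Across the 12 females, Krt5 followed the other keratins from animal to animal. On the log scale Pearson's r with Krt5 was 0.94 for Krt17, 0.93 for Krt14 and 0.86 for Krt15, 0.72 for Sfn and 0.11 for Trp63, with Spearman's rho of 0.96, 0.87, 0.83, 0.90 and 0.10. These are descriptions over animals that also differ in group, and the genes share each library and its scaling. As deviations from the group means, the r of Krt5 was 0.89 with Krt17, 0.92 with Krt14, 0.73 with Krt15, 0.55 with Sfn and 0.34 with Trp63. Without the 2 animals farthest from the Krt5 median, the r was 0.91, 0.81, 0.72, 0.76 and 0.37.

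The genes most like the mean standardised profile of the 6 over the 12 females included Dpysl5 (r = 0.98), Arhgef19, Chrm1, Shank2, Wasf1, Prom2, Wwc1, Vill and Lmx1b (r = 0.95 for the last). Within this profile the r of Krt17 was 0.97, of Krt5 0.96 and of Trp63 0.21. Each of the 6 is part of the profile, which raises its own r by construction.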

How the data were processed

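The deposited table held, for each of 24 libraries, a normalised signal per gene that the authors made from featureCounts reads after fastp and HISAT2 alignment to mm10 and DESeq2 1.38.3, per the submitters' processing notes. Its gene coordinates did not match an mm10 annotation, so none are printed. Every value was a whole multiple of 1 factor per library (100% within 0.01 of a whole number), so whole reads were recovered. The deposited log2 fold changes and deposited p-value columns were not used. Library strand was not given in the sources used here. Titles of the p21 libraries read p28, and 1 gives another animal number. The age, description and animal labels were followed.

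Of 16208 lines, 90 repeated ones were left out. Tests used limma 3.58.1 (R 4.3.3, variance trend) on log2(value + 1), 6 group means, 18 residual degrees of freedom and the genes that passed edgeR's filter at 10 reads (16005, all 6 among them), with Benjamini-Hochberg adjustment and a threshold of 0.05. On simulated data for DW against SW females, limma recovered 64.5% of 200 genes changed by a log2 of 1 among 15889, with 6 false calls. The 200 were drawn at random over all levels of expression. That share therefore does not describe genes as low as the keratins. Alternatives were edgeR 4.0.16, DESeq2 1.42.0, no filter, a pseudocount of 0.1, fewer groups, covariates and left-out libraries. No 2 libraries of a group agreed within counting noise (chi-square per degree of freedom at least 77.1 in 36 pairs).

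The genes and marker lists were chosen with earlier results of these data known. Named beyond the 6 are the 4 most abundant genes of a list where useful, list genes that passed in females for DW against SW or SW against p21, and genes among the 10 most correlated with the 6 in females. Some genes that meet this rule are not reported here. Male values of named epithelial genes were chosen for display after they were seen. The lists cover basal adhesion, contractile, vessel, luminal, suprabasal, hair follicle, muscle, lymph node and adipocyte genes.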

Additional observations from a re-analysis of the deposited data

Results flagged for a closer look

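Sets of 4 animals numbered 36 (6 genes in 6 groups). In 9 the highest or lowest animal stood apart from the other 3 by more than Dixon's 95% limit. For independent and normally spread values that limit gives about 1 in 20, or 1.8. That rate does not apply here, because many male keratin values were 0 and the genes were measured in the same animals. The 9 are therefore a description. All 9 were high values in males, on the log2(normalised reads + 1) scale. DW male 87 stood apart in Krt5 (1.81), Krt14 (0.39), Krt15 (0.62), Krt17 (1.36) and Sfn (3.29). In p21 male 54 it was Krt5 (1.19) and Krt14 (0.60), and in SW male 78 Krt5 (0.71) and Krt15 (0.21).

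The change of Krt15 from p21 to SW was 0.93 larger in females than in males on the same scale by limma's interaction test, with the adjusted p given above.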

How the results depend on the processing

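With each of the 3 count tests (edgeR with TMM, edgeR with DESeq2 size factors, and DESeq2) the number of the 6 genes that passed was 0 for DW against SW females, 0 for SW against p21 females, 2 for SW females against males, 0 for DW females against males and 0 for the sex-by-age interaction, against 1, 3, 4, 2 and 1 in limma. A pseudocount of 0.1 gave 0 for DW against SW females, 1 for SW against p21 females and 0 for the interaction. A fit with the compared groups alone gave 0 for DW against SW females and 1 for DW females against males. Muscle and lymph node covariates gave 0 for DW against SW females and 1 for SW against p21 females. Without DW females 82 and 83 these were 0 and 5, an alternative chosen after seeing the data, as was leaving out DW male 87 and SW female 75. Leaving out 1 animal at a time gave 1 to 2 for DW against SW females (2 without DW female 76), 1 to 4 for SW against p21 females, 0 to 2 for the sexes at p21, 1 to 3 for the sexes in DW, 4 in each fit for the sexes in SW, and 0 to 1 for the interaction. Over all genes, limma passed 204 for DW against SW females in the main fit and 1860 for SW against p21 females. For DW against SW females this was 63 with the pseudocount of 0.1, 1 with the compared groups alone and 1996 without DW female 76. The sex-by-age interaction passed 165 genes in limma, 38 with that pseudocount and 4 in edgeR with TMM. Counts of the 6 genes are to be read beside these totals. Trp63 for SW against p21 females ranged from −0.22 to 0.11 as 1 animal was left out, changing sign without p21 female 56. The causes were not tested. Of the log2 differences named, 449 alternative values kept direction and side of the threshold, 55 no longer passed, 13 newly passed and 1 changed sign. The 449 include differences that did not pass in the main fit either, whereas all 55 belong to differences that did. For SW against p21 females, Krt17 no longer passed in 9 of 18 alternatives and Krt5 in 8 of 18. Krt15 no longer passed in 7 of 19 for DW against SW females and in 12 of 26 for the sex-by-age interaction. Of the 39 other member differences, 26 changed sign under at least 1 alternative, and none passed in any. No paired analysis was possible because animal numbers are not shared between groups. At this depth males with fewer than 3 reads limit the keratin folds.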
